A study of Rattus norvegicus with 4 samples.

Results

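Cd8-negative T cells were the barcodes of a rat hippocampus single-cell RNA sequencing series that carried transcripts of the CD3 complex and none of Cd8a or Cd8b. A barcode was taken when its cell passed the filters of at least 500 unique molecular identifiers (UMIs, counted transcript molecules), at least 300 genes and at most 20% of UMIs from mitochondrial genes. It also needed Cd3d, Cd3e and Cd3g to sum to at least 2 UMIs and Cd8a and Cd8b to sum to 0. The sum of C1qa, C1qb and C1qc (microglia) and that of Mag, Mog and Mobp (myelin) could each be at most 5, and that of Cldn5 and Flt1 (endothelium) at most 3. The rule found 347 cells among 28879 filtered cells. These 13 genes chose the cells, so their levels are given only as a description.

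The series profiled the hippocampus of wild type male Sprague Dawley rats aged 10 to 12 months. The design text describes 20 rats in 2 groups of 10, all given a middle cerebral artery occlusion with an intraluminal filament on 1 side, a model of ischaemic stroke. One group then also received chronic stress, and tissue of 5 rats per group was sequenced. The 4 titled samples are NC (a negative control), MCAO (the occlusion), DEPR and MD (both described as chronic stress), so the titles do not map fully onto the design text, and whether animals were pooled is not stated. All cells were deposited in 1 matrix whose barcodes end in 1 of 4 suffixes, here called sets 1 to 4. Nothing in the sources used here ties a set to a titled sample. No condition was therefore compared, and the sets are described side by side with 1 library each and no test. Intervals below are exact 95% intervals that cover counting error only.

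As background, T cells recognise antigen through a receptor that signals through the CD3 chains. Most mature T cells carry either the CD8 co-receptor, typical of cytotoxic cells, or the CD4 co-receptor, typical of helper and regulatory cells. Helper cells deliver help through surface ligands such as CD40 ligand and through cytokines, and regulatory cells restrain responses and are defined by the transcription factor Foxp3. T cells are rare in the healthy brain and enter the tissue after ischaemic injury. In rats, CD4 is also made by microglia and macrophages.

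The 347 cells fell into sets 1 to 4 as 86, 79, 66 and 116. Applying the same gate with at least 1 Cd8 UMI gave 483 Cd8-positive T cells (59, 78, 116 and 230), which served as the closest comparison. The cells with no Cd3 UMI, 27701 in all, served as non-T cells. Of 973 filtered cells with at least 2 Cd3 UMIs, the limits on the microglial, myelin and endothelial genes removed 143. Just inside the Cd3 limit were 17 members with exactly 2 Cd3 UMIs, of which 3 had a Cd2 UMI. Just outside were 55 cells with 1 Cd3 UMI, of which 8 had Cd2. On the other boundary, 64 of the 483 Cd8-positive cells (13.25%) held only 1 Cd8 UMI, and their median was 4.

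Within the 347 cells, 24 stood apart. They held at least 20 UMIs of Jchain and Mzb1, genes of antibody-secreting plasma cells, whereas each of the other 323 held at most 2. The 24 lay in set 1 (2 cells), set 3 (3 cells) and set 4 (19 cells), and none lay in set 2. Their median was 26395 UMIs, against 3637 in the other 323, so they held 32.99% of all UMIs of the 347. Tnfrsf17, a survival receptor of plasma cells, had a UMI in 22 of the 24 and in 0 of the 323. Sdc1, the plasma cell surface proteoglycan CD138, had one in 16 of the 24 and in 5 of the 323. Cd2, an adhesion receptor of T cells, had one in 1 of the 24. Cd40lg, Trat1 and Cd28 had none there, and Lck, the kinase that starts T cell receptor signalling, had one in 2 cells. Of their Cd3 UMIs 97 were Cd3g, 10 Cd3e and 7 Cd3d. In the whole filtered data 732 cells were as rich in Jchain and Mzb1, and 680 of them had no Cd3 UMI. Such cells made up 7 of the 17 members with exactly 2 Cd3 UMIs and 19 of the 55 cells just outside that limit. The barcode with Cd2, in set 1, held 8 Cd2 and 17 Cd3 UMIs beside 124 of Jchain and Mzb1, so it carried transcripts of both cell types. As a group the 24 went against the T cell label. Gene levels below are therefore those of the 323 (84, 79, 63 and 97 cells in sets 1 to 4) unless all 347 are named. The split was added after the values were seen.

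**Figure D1:**
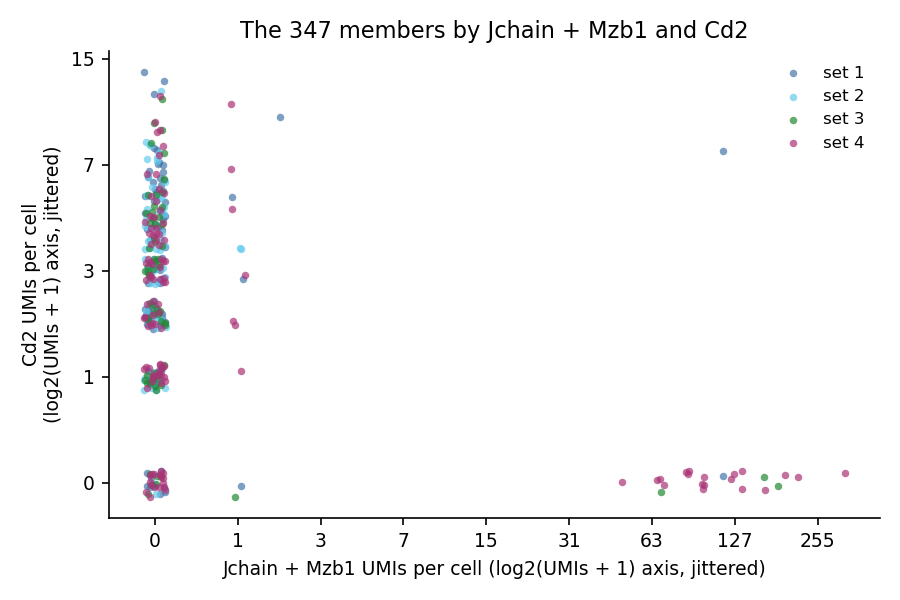
Each point is 1 of the 347 cells, with its Jchain and Mzb1 UMIs on the horizontal and its Cd2 UMIs on the vertical axis (both log2(UMIs + 1), jittered), coloured by set. The 24 cells on the right, all but 1 of them without Cd2, stand clear of the other 323, which hold at most 2 UMIs of Jchain and Mzb1.

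The 323 cells carried the T cell label in their other genes. Cd2 was detected in 285 of them (88.24%), and Cd2 or another of 8 T cell genes outside the rule in 319 (98.76%). The 9 T cell markers of the list that the rule did not use all had a UMI, and they summed to 2435, 2615, 2198 and 2351 CPM (the UMIs of a gene scaled to a common total) in sets 1 to 4, against 3.46 to 9.96 in non-T cells. Of 18 lists of markers of other cell types, 13 summed to less than in non-T cells in all 4 sets, again without the genes of the rule. The monocyte list summed to more, at 2957, 3272, 2240 and 2564 CPM against 645 to 1054, nearly all of it from S100a4 and Plac8, while Lyz2 was at 14.1 to 25.5 CPM against 245 to 436. The innate lymphoid list was also higher, at 581, 178, 282 and 192 CPM against 6.54 to 13.1. Its Gata3, Areg and Rora had UMIs, and Il1rl1, Kit and Il17rb were at 0. The dendritic cell list was higher in 3 of 4 sets, mostly from Bst2 (222, 140, 98.8 and 78.7 CPM), with Xcr1, Clec9a, Clec10a and Cd209 at 0. Its other genes had UMIs in set 3, with Siglech and Ccr7 each at 24.7 CPM and Flt3 at 14.1. In the non-T cells of that set these were at most 0.27 CPM. The ependymal list, at 83.3 CPM in set 4 and 0 in the others, and the mast cell list, at most 2.97 CPM, were not lower in every set. The part of such cells in the results was not tested. The microglia markers, 9 of 9 with a UMI, summed to between 80.1 and 189 CPM per set, against 1721 to 2872 in non-T cells. Those of oligodendrocytes, 6 of 6 with a UMI, summed to between 273 and 635 CPM, against 6687 to 17222. Of 7 B cell markers 2 had a UMI, and the list summed to 2.97, 31.5, 81.1 and 27.8 CPM, against 180.5 to 466 in non-T cells. Cd79b, Ms4a1, Pax5 and Vpreb3 were among those at 0. Of 9 NK cell markers 8 had a UMI, and Ncr1 was at 0. The NK list was among those that summed to less, but non-T cells held much Tyrobp (872 to 1189 CPM) and Fcer1g (605 to 786). Klrd1 of that list was higher in the 323 cells, at 59.3, 133, 88.2 and 113 CPM against 0.27 to 2.31. Red cell markers differed by set, at 6825, 461, 102 and 160 CPM, and 1 cell of set 1 held 87.46% of all Hbb UMIs. In each of sets 1 to 4 the non-T cells also carried red cell transcripts, at 26821, 14166, 1297 and 1771 CPM.

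Cd8-negative T cells were about 1 in every 100 filtered cells in each set. All 347 made up 1.20% of filtered cells (interval 1.08% to 1.33%). By set the share was 1.31% (1.05% to 1.62%), 0.958% (0.759% to 1.19%), 1.24% (0.962% to 1.58%) and 1.32% (1.10% to 1.59%), and these intervals all overlapped. Without the 24 plasma-gene-rich barcodes the shares were 1.28%, 0.958%, 1.19% and 1.11%. Cd8-positive T cells varied more, at 0.900% (0.686% to 1.16%), 0.946% (0.748% to 1.18%), 2.18% (1.81% to 2.61%) and 2.63% (2.30% to 2.98%). As a result, Cd8-negative cells were 59.3% (50.9% to 67.4%) of gated T cells in set 1 and 50.3% (42.2% to 58.4%) in set 2. They were 36.3% (29.3% to 43.7%) in set 3 and 33.5% (28.6% to 38.8%) in set 4. The interval of set 1 lay above those of sets 3 and 4, and that of set 2 above that of set 4. With the 24 left out, set 4 was at 29.8% (24.8% to 35.0%).

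**Figure D2:**
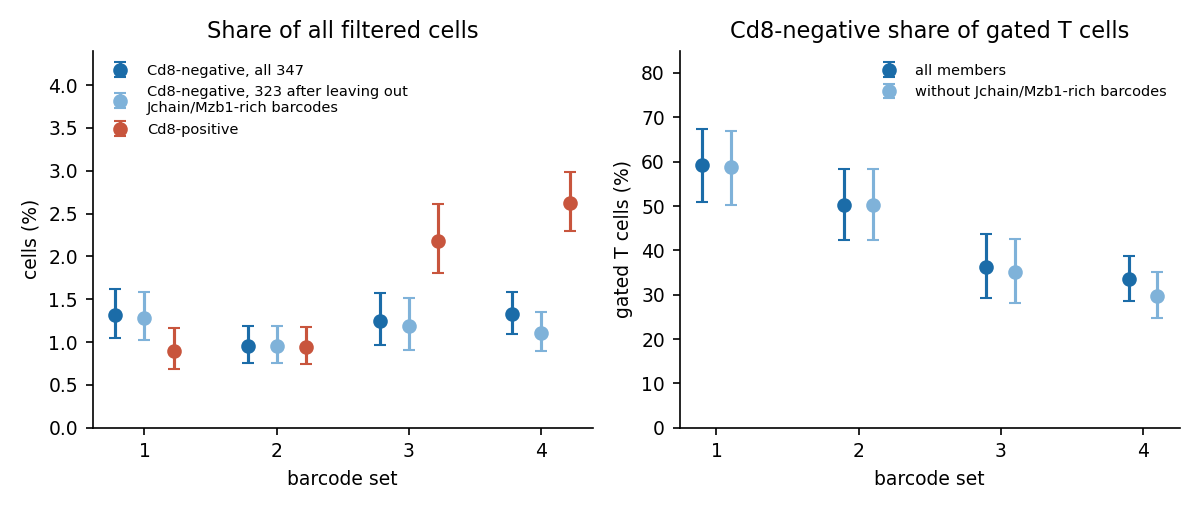
Left, the share of filtered cells in percent for Cd8-negative T cells (all 347, and the 323 without plasma-gene-rich barcodes) and Cd8-positive T cells in sets 1 to 4; right, Cd8-negative cells as a percent of gated T cells; bars are exact 95% intervals. The Cd8-negative share lies between 0.958% and 1.32%, while the Cd8-positive share is 0.900% in set 1 and 2.63% in set 4.

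Set against non-T cells, the 323 cells showed the T cell receptor machinery, helper ligands and lymphocyte chemokine receptors at levels far above the background of the tissue, and myelin, endothelial and microglial genes far below it. UMIs were summed per set and class, and a gene was called higher or lower when its CPM ratio was at least 2-fold (or at most 0.5) in every one of the 4 sets, each time with an interval that left out 1. By this rule 481 of 4599 measured genes (10.5%) were higher and 650 (14.1%) lower. With all 347 cells it was 317 of 4894 (6.48%) higher and 714 (14.6%) lower, and 311 (6.76%) and 625 (13.6%) of 4599 genes were called in both versions. Since the cells were gated on T cell transcripts and against 3 other cell types, these counts describe the gate and carry no test.

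T cell receptor signalling genes were higher in 16 of 18 measured cases and lower in 0, with a median log2 ratio of 6.74 over sets, against 0.05 for all measured genes. Trat1, an adaptor bound to the T cell receptor, was at 222, 185, 155 and 148 CPM in sets 1 to 4, against at most 0.180 CPM in non-T cells. Skap1, an adaptor of integrin signalling downstream of the receptor, was at 214, 213, 222 and 333 CPM, against at most 0.222. Both were thus nearly absent outside the T cells in every set. Cd2, which binds adhesion partners on other cells, was at 887, 989, 684 and 637 CPM against 0.779 to 1.37. Bcl11b, a transcription factor that maintains T cell identity, was higher by a median log2 ratio of 9.90. Higher still were Cd40lg (12.91), Tnfsf8 (11.82), Ifng (11.33), Izumo1r (11.18), Podnl1 (10.44), Tnfrsf4 (10.15) and Camk4 (9.95), a calcium-dependent kinase. Izumo1r had no UMI in the non-T cells of 3 sets, and its ratio is a bound. Of the co-stimulation and checkpoint receptors, 10 of 11 were higher and 1, Havcr2, lower (median 9.38).

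Among chemokine receptors, 2 of 4 were higher and 1 lower. Cxcr4, the receptor of Cxcl12, was at 1774, 2300, 1104 and 1125 CPM against 15.3 to 26.0 in non-T cells. Cd69, an activation and tissue retention marker, was at 1213, 1077, 1143 and 896 CPM against 20.9 to 79.8. Both genes were high in all 4 sets with no overlap between the classes. Cx3cr1, a microglial receptor, was the lower one, at a log2 ratio of -4.36. Apoptosis and survival genes were higher in 8 of 13 cases and lower in 1, among them Gimap4, a lymphocyte survival GTPase, at 6.41. Antigen presentation by MHC class I was higher in 4 of 10 genes and lower in 0 (median 1.30), led by the peptide transporter Tap1 at 2.50. MHC class II was higher in 1 of 7 and lower in 3 (median -1.99).

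Immediate early and heat shock genes were higher in 1 of 19 cases and lower in 8 (median -0.60), and the lowest was the heat shock chaperone Hspa1b at -2.95. Glucocorticoid response genes were higher in 1 of 13 cases, Cxcr4, and lower in 3 (median -0.87). The interferon response was higher in 3 of 9 cases and lower in 0 (median 0.86). The genes with the lowest ratios were those of myelin and its cells, Mal (-6.28), Cryab (-6.18), Edil3 (-6.11), Stmn4 (-6.0), Ermn (-5.99), Nkx6-2 (-5.76) and Cldn11 (-5.75), followed by Igfbp7 (-5.75), Igh-6 (-5.69) and Cxcl12 (-5.67). Igh-6 encodes the immunoglobulin mu heavy chain. With all 347 cells it was not called, and its log2 ratio was 1.47.

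Cd8-negative T cells were compared with Cd8-positive T cells (482 after leaving out 1 cell rich in the plasma cell genes). Helper ligands and several co-stimulatory receptors were at higher levels, and cytotoxic genes at lower levels. Here 20 of 4006 measured genes (0.499%) were higher and 24 (0.599%) lower in all 4 sets. Without leaving any out it was 12 of 4202 (0.286%) higher and 44 (1.05%) lower, and of the 4003 genes measured in both versions 11 (0.275%) and 23 (0.575%) were called in both. Scaling all cells by TMM factors, which set the bulk of genes level, gave 20 higher and 27 lower in place of 12 and 44. The median of all genes was then -0.01 in place of -0.31 (log2), and it was -0.03 for the 323 under scaling by totals. Median UMIs per cell were close, 3637 and 3845.

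The co-stimulation and checkpoint receptors were higher in 5 of 14 cases and lower in 2 (median 0.31). Cd40lg, the ligand through which helper T cells activate B cells and myeloid cells, was at 448, 447, 215 and 194 CPM in sets 1 to 4, against 2.86, 3.46, 3.57 and 3.12 CPM in Cd8-positive cells. Those low values rest on 1, 1, 2 and 3 UMIs, so the ratios of 157, 129, 60.3 and 62.3 are wide. The interval ran from 27.7 to 6228 in set 1 and from 16 to 509 in set 3. Tnfsf8, the ligand of CD30, was at 878, 804, 282 and 419 CPM, against 8.58, 3.46, 3.57 and 9.36. The Tnfsf8 ratio lay between 44.8 in set 4 and 233 in set 2. Both ligands were higher in sets 1 and 2 than in sets 3 and 4, and the lowest set of the Cd8-negative cells lay above the highest of the Cd8-positive cells.

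Tnfrsf4 (OX40), a receptor that sustains activated T cells, was at 264, 252, 116 and 181 CPM, against 5.72, 6.91, 1.78 and 0. Izumo1r, a folate receptor family protein of T cells, was at 240, 248, 77.6 and 99.5 CPM, against 2.86, 3.46, 0 and 0. Tnfrsf18 (GITR) was at 199, 175, 159 and 164 CPM, against 37.2, 38.0, 30.3 and 29.1. It was the steadiest of the receptors over the sets. Cd28, the main co-stimulatory receptor, was at 134, 154, 176 and 171 CPM, against 28.6, 13.8, 48.1 and 59.3. Ctla4, the inhibitory counterpart of Cd28, was at 285, 343, 180 and 139 CPM, against 68.6, 159, 55.3 and 59.3. Over all 347 cells Ctla4 and Cd28 were not called, at log2 ratios of 1.21 and 1.70. Icos, a related co-stimulator, was at 323, 357, 293 and 435 CPM, against 220, 273, 111 and 106, and was not called. The 2 lower receptors were Cd96 (log2 ratio -1.71) and Lag3 (-1.88), both inhibitory. The co-stimulatory Cd27 (-1.11) and Cd226 (-1.53) were not called. Over all 347 cells both were called lower, at -1.71 and -2.02. Cd28, Tnfrsf18, Cd96, Cd27 and Cd226 were named after their values were seen.

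Of the regulatory T cell genes 5 of 7 were higher and 0 lower (median 2.40), namely Tnfrsf4, Izumo1r, Capg (2.86), Tnfrsf18 and Ctla4. Activated helper cells are also known to carry several of these, 3 of them stand in the co-stimulation list too, and Foxp3 itself had too few UMIs to be measured. Among helper lineage factors 1 of 9 was higher and 0 lower (median 0.21). That gene was Maf, a transcription factor of helper subsets, at 228, 185, 98.8 and 139 CPM against 40.0, 41.5, 8.92 and 16.6. Tcf7, the TCF1 factor of naive and memory cells, was at 53.4, 59.4, 38.8 and 46.3 CPM against 2.86, 3.46, 8.92 and 14.6. Among all 347 Tcf7 was not called, at a log2 ratio of 2.82. Itgb8, an integrin chain that takes part in activating TGF-beta, was at 193, 259, 84.7 and 88.0 CPM against 22.9, 20.7, 0 and 0. Tesc (2.64), Cd200 (2.96) and Nfkb1 (1.31) were also higher.

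**Figure D3:**
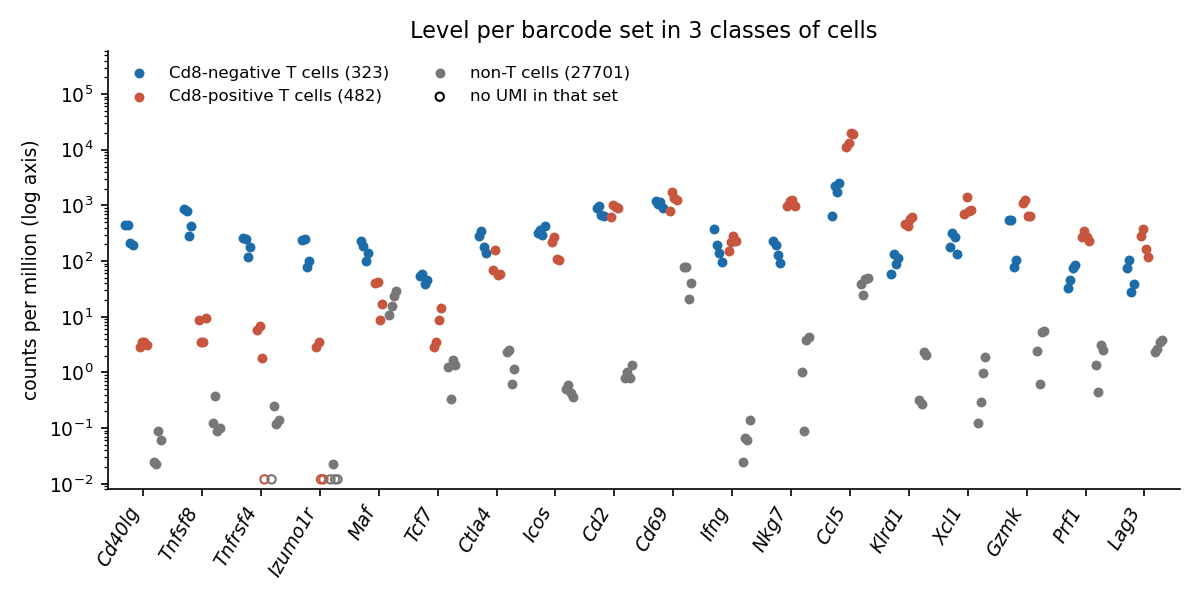
Levels in CPM (log axis) of 18 genes are shown in the 323 Cd8-negative T cells, 482 Cd8-positive T cells and 27701 non-T cells, 1 point per set, with open points at the bottom for sets without a UMI. Cd40lg and Tnfsf8 lie higher in the Cd8-negative than in the Cd8-positive cells in every set, and Nkg7 and Ccl5 lie lower.

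Cytotoxic genes were lower in 12 of 17 cases and higher in 0 (median -2.32). Ccl5, a chemokine of effector T cells, was at 653, 2213, 1735 and 2490 CPM, against 11198, 13318, 20039 and 19396 in Cd8-positive cells. Nkg7, a protein of cytotoxic granules, was at 231, 196, 127 and 92.6 CPM, against 961, 1210, 1234 and 982. The Nkg7 ratio lay between 0.0943 in set 4 and 0.241 in set 1. The pore-forming Prf1 had a log2 ratio of -2.41, Gzma -2.32 and Gzmk -1.88, both granule proteases. In all 347 Gzmk was not called, at -2.36. Receptors of the killer cell lectin family were among the lowest, Klri2 (-4.74), Klrb1c (-3.76), Klre1 (-3.25), Klrc3 (-3.13), Klrc1 (-3.03) and Klrd1 (-2.56). The chemokines Ccl4 (-2.29) and Xcl1 (-2.05) were lower too. Gzma, Klrd1, Ccl4 and Xcl1 were named after their values were seen.

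Many T cell genes did not separate the classes by this rule. T cell receptor signalling was called in 0 of 20 genes in either direction, with a median of -0.06 and Cd2 at -0.27. Tissue residency, chemokine receptor, interferon, glucocorticoid, heat shock, MHC and apoptosis genes were likewise called in 0 cases. Among all 4006 measured genes only 0.499% were higher and 0.599% lower. A list of this size with 0 calls is therefore close to that share. Cd69 was at -0.37 and Cxcr4 at 0.23. Ifng, the cytokine interferon gamma, was at 380, 196, 138 and 94.9 CPM against 152, 218, 280 and 231, higher in set 1 and lower in sets 3 and 4. A ratio under the limit does not show that the classes are alike.

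The sequences upstream of genes that separated the classes are shown for Tnfsf8 and Tnfrsf4, which were higher, and Nkg7, which was lower. NFAT, a transcription factor activated by T cell receptor signalling, binds DNA around the core GGAAA, and matches to GGAAA or its complement TTTCC are in capitals. The 250 bases before the annotated start were read from RefSeq on GRCr8, which is not the build of the counts, and are written 5′ to 3′ on the strand of the gene. They cover chr5:82292859-82293108 (minus strand) for Tnfsf8, chr5:171888884-171889133 (plus strand) for Tnfrsf4 and chr1:102981247-102981496 (plus strand) for Nkg7.
Tnfsf8: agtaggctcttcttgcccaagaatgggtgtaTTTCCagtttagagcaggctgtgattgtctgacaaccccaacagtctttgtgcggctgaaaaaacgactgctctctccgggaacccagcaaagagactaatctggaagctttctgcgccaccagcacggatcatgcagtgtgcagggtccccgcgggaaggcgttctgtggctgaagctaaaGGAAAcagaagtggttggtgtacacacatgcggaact
Tnfrsf4: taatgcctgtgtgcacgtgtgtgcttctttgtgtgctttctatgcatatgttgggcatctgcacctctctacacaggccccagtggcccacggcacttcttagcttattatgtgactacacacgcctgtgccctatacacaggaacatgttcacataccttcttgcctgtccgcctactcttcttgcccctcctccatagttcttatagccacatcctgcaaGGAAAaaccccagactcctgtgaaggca
Nkg7: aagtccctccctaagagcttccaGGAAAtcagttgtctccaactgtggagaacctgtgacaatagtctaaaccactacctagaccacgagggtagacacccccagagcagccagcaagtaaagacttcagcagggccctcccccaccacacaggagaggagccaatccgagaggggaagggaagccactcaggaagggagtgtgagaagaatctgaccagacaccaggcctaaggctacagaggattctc
Tnfsf8 held 2 matches, Tnfrsf4 1 and Nkg7 1. Of 33469 rat promoters of this length 56.9% held at least 1 match and 22.9% at least 2. Of 14 genes looked up 11 had a promoter in the table, and 6 of these held a match. A match here describes the letters and does not show binding.

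The 323 cells were mixed, and a few markers divided them. Cd40lg was detected in 145 (44.9%, interval 39.4% to 50.5%) and Tnfsf8 in 148 (45.8%), with 86 cells holding both. Nkg7 was detected in 51 (15.8%, 12.0% to 20.2%) and Foxp3 in 10 (3.10%, 1.49% to 5.62%). A share of cells with a UMI depends on depth. With each cell thinned to 1000 UMIs, Cd40lg was found in 25.9%, Nkg7 in 10.7% and Foxp3 in 0.315%. As a gauge of free RNA, in 7497 oligodendrocyte-gated cells (median 5635 UMIs), which should lack them, Cd40lg was found in 0, which allows a share of up to 0.0400%. Nkg7 was found there in 0.107% and Foxp3 in 0.0934%.

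Cd4 itself was detected in 51 of the 323 cells (15.8%, 12.0% to 20.2%), and in 3.47% after thinning. Its level was 35.6, 55.9, 28.2 and 46.3 CPM in sets 1 to 4, against 8.10, 7.89, 11 and 17.2 in non-T cells, a median log2 ratio of 1.78. In the full 347 it was not called, at 1.40. Cd4 was found in 1 of the 483 Cd8-positive cells (0.207%) and in 0.160% of oligodendrocyte-gated cells. Microglia-gated cells had it in 10.9% (2.60% after thinning, median 4906 UMIs). Of the 51 Cd4 cells 31 held Cd40lg (60.8%), 29 held Tnfsf8 and 0 held Ccl5. Most Cd8-negative T cells thus had no Cd4 UMI at this depth, and the gate is not a gate for Cd4 cells.

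Cells with a Cd40lg UMI held less of 3 cytotoxic genes than those without. Ccl5 was at a ratio of 0.00640 in the Cd40lg cells, Nkg7 at 0.0593 and Gzmk at 0.126. Only 1 cell held both Cd40lg and Nkg7. Tnfsf8 was higher in the Cd40lg cells, at a ratio of 1.86, as were Fkbp5 (2.0), Tcf7 (2.07) and Ctla4 (1.57). These splits were made within the same cells and carry no test.

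The 51 Nkg7 cells also held other genes that were higher in the Cd8-positive class. Ccl5 was at 10418 CPM in them and 423 in the remaining cells (ratio 24.6, interval 22.3 to 27.2), and 45 of the 51 held it. Gzmk was at 1649 and 86.7 CPM (ratio 19.0). Ccl4 (26.9), Xcl1 (26.3), Klrd1 (8.98), Prf1 (7.39), Lag3 (4.14), Ifng (3.38) and Itgae (2.97) were also higher in ratio. Cd40lg (0.0295), Tnfrsf4 (0.0693) and S1pr1 (0.0398) were lower. These cells were spread evenly, 13, 14, 12 and 12 in sets 1 to 4. Their median was 3140 UMIs, against 3851 in the other cells, and 13.25% of Cd8-positive cells held just 1 Cd8 UMI. The part of missed Cd8 transcripts in this group was not tested.

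The 10 Foxp3 cells were too few for more than a description. Tnfrsf18 was at 712 CPM in them and 154 in the others (ratio 4.62, interval 3.11 to 6.67), in 9 of the 10. Lag3 (3.86), Il2ra (3.65, in 4 cells), Icos (2.79), Tnfrsf4 (2.38), Gata3 (2.24) and Ctla4 (1.90) also had ratios over 1. Tnfsf8, Ccl5, Nkg7 and Ifng were at 0 UMIs, and no Foxp3 cell held a Cd4 UMI.

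**Figure D4:**
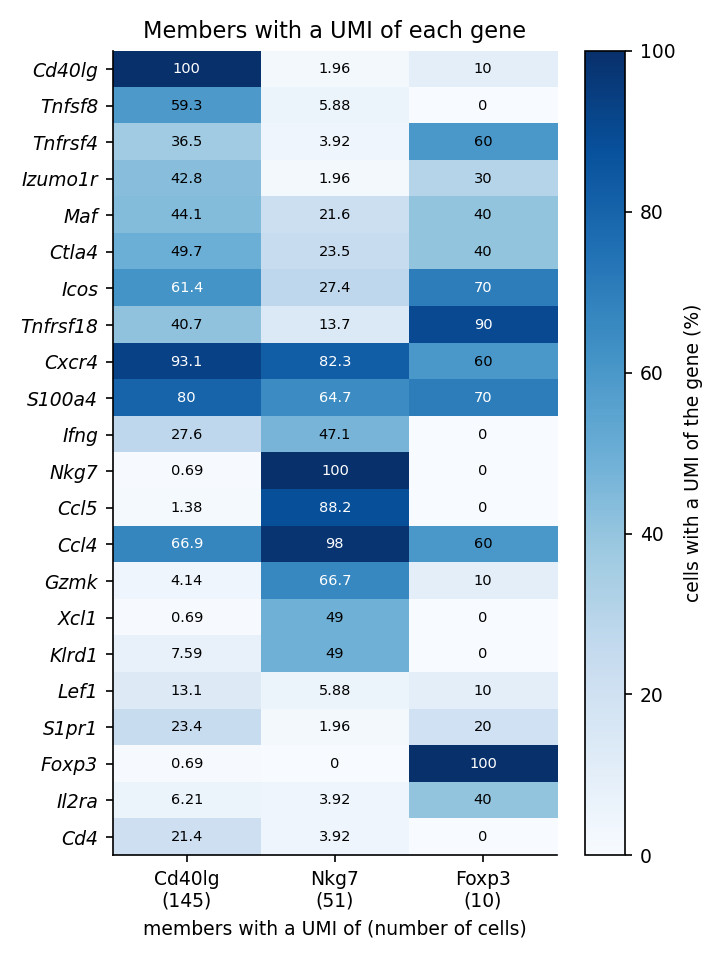
Columns are the cells of the 323 with a UMI of Cd40lg (145), Nkg7 (51) or Foxp3 (10), rows are genes, and shade and number give the percent of those cells with a UMI of the gene, without thinning. Ccl5 is found in 88.2% of the Nkg7 cells, Tnfsf8 in 59.3% of the Cd40lg cells and Tnfrsf18 in 90% of the Foxp3 cells.

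Helper cytokines were sparse. Il21, which helps B cells, had 97 UMIs in 43 cells, and Ifng had 264 in 89. Il10 had 34 UMIs in 15 cells and Il2 12 in 4. Il17a had 61 UMIs in 2 members, 60 of them in 1 cell of set 4. In all barcodes of the series Il4, Il13, Gzmb and Pdcd1 had 0 UMIs, Tnf 2 and Il5 3, so these genes gave no information on lineage.

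The 4 sets differed from each other within the Cd8-negative T cells. Between the highest and the lowest set, 298 of 1610 genes with at least 50 UMIs (18.5%) were apart by at least 2-fold with an interval that left out 1. With all 347 cells it was 735 of 1881 (39.1%), and 223 genes were shared between both versions. The highest and the lowest set were picked by value for each gene. The interval does not cover that pick, so these counts are a description. Of the 298, the highest set was 1 in 96 genes, 2 in 90, 3 in 46 and 4 in 66. Each set is 1 library, so the difference between libraries and that between conditions cannot be told apart.

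S1pr1, Lef1 and Plac8 were found mostly in sets 3 and 4. Of the naive and central memory list 3 genes had enough UMIs, and all were apart and highest in set 4, S1pr1, Satb1 (35.6, 17.5, 88.2 and 132 CPM) and Foxo1 (68.2, 42, 106 and 123). Among all 1610 genes 18.5% were apart. Lef1 and Tcf7 had under 50 UMIs over both sets and are given as values, and Tcf7, given above, was lowest in set 3. S1pr1, the receptor through which lymphocytes leave tissue, had a UMI in 5, 3, 20 and 39 cells of sets 1 to 4. Lef1, a transcription factor of naive T cells, had one in 0, 3, 14 and 21 cells. S1pr1 was at 23.7, 10.5, 198 and 208 CPM (highest over lowest 19.9, interval 6.58 to 98.1), and Lef1 at 0, 14, 120 and 107. Plac8, a small lysosome-linked protein of leukocytes, was at 68.2, 45.4, 875 and 845 CPM (ratio 19.2, 11.1 to 36.7). In Cd8-positive cells these genes were also higher in sets 3 and 4 than in sets 1 and 2, with S1pr1 at 0, 6.91, 83.8 and 94.6, and Plac8 at 48.6, 96.8, 255 and 294. In non-T cells the order was not shared, with S1pr1 at 61.9, 19.6, 28.4 and 28.3 and Plac8 at 333, 390, 113 and 146 CPM. Median depth per cell was 3506, 3146, 4216 and 4037 UMIs.

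Several effector and interferon genes were highest in sets 1 and 2. The share apart over all 1610 genes was 18.5%. Cytotoxic genes were apart in 6 of 10 cases, 4 of them highest in set 1 or 2 and lowest in set 3 or 4 (Gzmk, Nkg7, Cst7 and Xcl1). Ccl5 was lowest in set 1 and highest in set 4 (3.82-fold), and Klrd1 was lowest in set 1 and highest in set 2. Prf1 had under 50 UMIs over its highest and lowest set and is given as values. It ran the other way, at 32.6, 45.4, 74.1 and 83.3 CPM. T cell cytokines were apart in 4 of 5 cases, 3 of them highest in set 1 (Ifng, Il21 and Tnfsf8) and Il17a in set 4. Interferon genes were apart in 5 of 8 cases, each highest in set 1. Gzmk was at 543, 542, 77.6 and 107 CPM (7.0, interval 4.48 to 11.4) and Il21 at 187, 59.4, 21.2 and 25.5 (8.83). In Cd8-positive cells Gzmk was also higher in sets 1 and 2, at 1106, 1227, 658 and 637 CPM. So was Il21 there, at 14.3, 24.2, 1.78 and 1.04 CPM. Ifng, given above, was highest in set 1 and lowest in set 4, 4.00-fold apart (2.79 to 5.84), whereas in Cd8-positive cells set 1 was the lowest. Tnfsf8 was 3.11-fold (2.42 to 4.04) and Cd40lg 2.30-fold (1.75 to 3.04) apart. The number of Cd40lg cells was 47, 37, 22 and 39 (56.0%, 46.8%, 34.9% and 40.2%). Isg15, an interferon-induced ubiquitin-like protein, was at 386, 234, 42.3 and 57.9 CPM (9.11, 5.04 to 18.1), and Mx2 at 142, 83.9, 14.1 and 11.6. Isg15 was also highest in sets 1 and 2 in Cd8-positive cells (200, 176, 46.4 and 59.3) and in non-T cells (92.4, 48.2, 24 and 23.8).

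Some stress-linked genes differed between sets in all 3 classes. Glucocorticoid response genes were apart in 5 of 8 cases and immediate early and heat shock genes in 8 of 18, against 18.5% of all 1610 genes. Fkbp5, a glucocorticoid-induced co-chaperone, was at 157, 161, 45.9 and 57.9 CPM (3.51, 1.86 to 7.08). It was at 48.6, 79.5, 26.8 and 28.1 in Cd8-positive cells and at 57.8, 81.4, 13 and 14.1 in non-T cells, again higher in sets 1 and 2. Tsc22d3, the glucocorticoid-induced leucine zipper, was at 365, 661, 501 and 389 CPM and was not apart. Hspa1b ran the other way, at 169, 301, 624 and 382 CPM (3.69), with 126, 335, 881 and 613 in Cd8-positive cells and 1567, 1938, 3743 and 4515 in non-T cells. Differences that also held in non-T cells are thus not particular to these T cells. The red cell transcripts given above were highest in sets 1 and 2 as well, and their part in these differences was not tested.

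**Figure D5:**
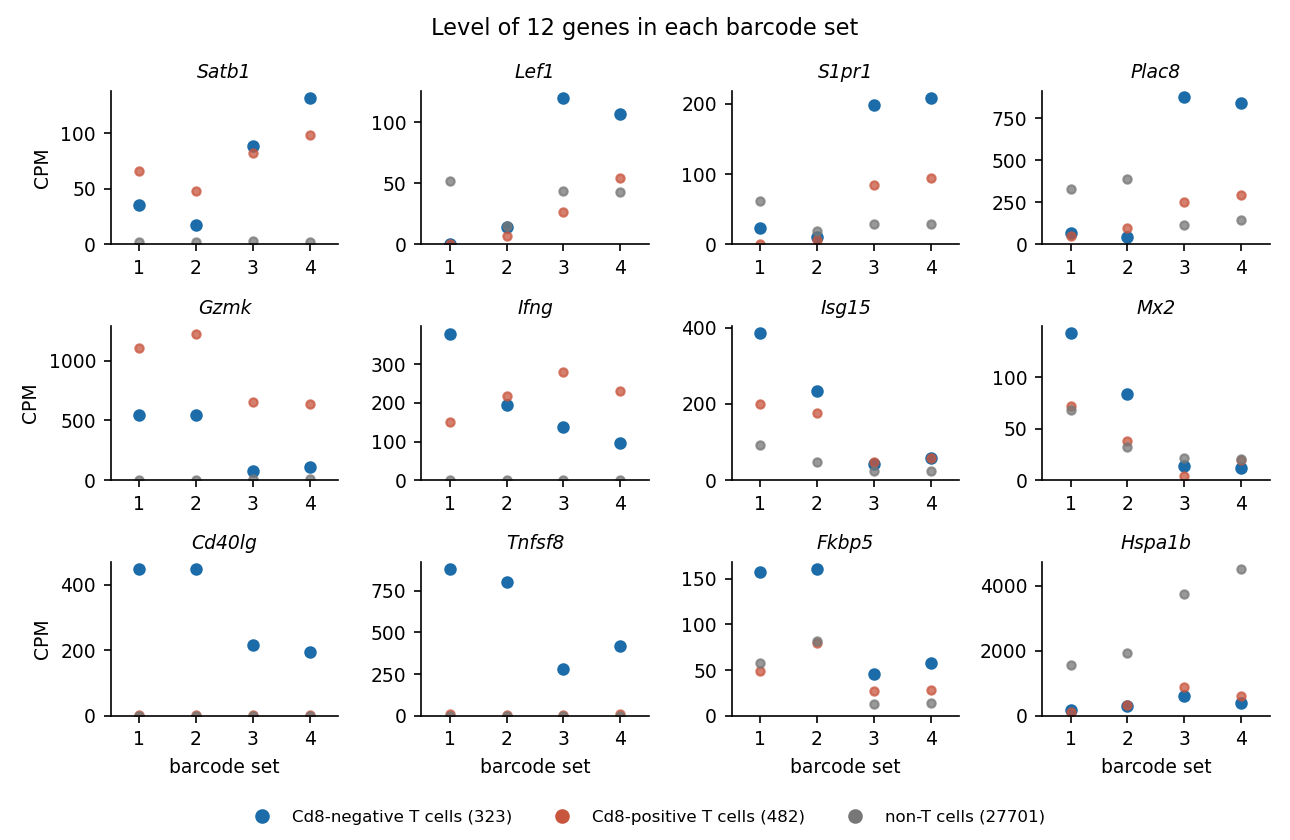
Levels in CPM (linear axes from 0) of 12 genes are shown by set, with 1 point each for the 323 Cd8-negative T cells, the 482 Cd8-positive T cells and the non-T cells. S1pr1 is higher in sets 3 and 4 in both T cell classes, while Fkbp5 is higher in sets 1 and 2 in all 3 classes.

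Single cells decided some of the largest differences between sets. In set 1, 1 cell held 921 of 1053 Hbb UMIs and 1 cell held 93.33% of Alox15 UMIs. In set 4, 1 cell each held 95.74% of Mt3, 86.47% of S100b and 98.36% of Il17a UMIs. Of Hba-a2 UMIs 82.6% lay in 1 cell. Ubd, a ubiquitin-like protein induced by inflammatory cytokines, was at 655, 164, 10.6 and 11.6 CPM, with 40.94% of its UMIs in 1 cell. Ccl1, a chemokine of activated T cells, was at 300, 97.9, 3.53 and 4.63 CPM, and 1 of 14 cells held 59.09% of its UMIs. Areg, an epidermal growth factor receptor ligand, was at 353, 31.5, 49.4 and 32.4 CPM, with 28.85% of UMIs in 1 cell. Mki67, a proliferation marker, had 41.82% of its UMIs in 1 cell of set 4.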

How the data were processed

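The authors deposited raw UMI counts per gene and barcode, in 1 matrix of 32623 genes and 31638 barcodes that Cell Ranger 5.0.0 produced, per the file headers. Per the submitters' processing notes, Cell Ranger, STAR and Rnor_6.0 were used. Per the labels' protocols, enzymatic dissociation and red cell lysis preceded 10x 3' library preparation (version 3). No annotation release is given in the sources used here.

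The filters left 6554, 8250, 5315 and 8760 cells in sets 1 to 4, with median UMIs of 4960, 4574, 6029 and 5466. UMI totals of these cells were 42302968, 45501155, 35030108 and 53072103. Of barcode sequences 96 occurred in 2 sets. 2 members shared theirs with a cell of another set, and 0 pairs of members did.

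UMIs were summed per set and class and scaled to CPM of all UMIs of that sum. A gene was measured when the mean CPM of both classes gave at least 5 expected UMIs in the smaller class in every set. Ratios have exact conditional binomial intervals, and a sum of 0 was set to 3 counts per set. Log2 ratios in the text are medians over sets, and those that rest on such a floor are bounds. Between sets, genes with at least 50 UMIs in the highest and lowest set together were used. No differential test was run, since no set is tied to a label. Where several genes shared a symbol, the one with most UMIs was used. Microglia-gated and oligodendrocyte-gated cells held over 5 UMIs of the C1q or myelin genes.

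Genes named in the text were taken from the genes of the rule, the 10 called genes with the highest and the 10 with the lowest ratio per comparison, the 2 highest and 2 lowest measured members of each of 21 gene lists, a set of T cell genes and the 10 genes most apart between sets. Other genes are said to be named after their values were seen, or stand as examples of a list. The members and all lists were chosen with earlier results of these data known. Of 370 list entries 22, and of 154 marker entries 17, matched no symbol, among them Il7r, Trac and Trdc, and were not analysed here. Doublets were called per set with Scrublet at an expected 6%, which marked 211, 268, 129 and 334 cells, 1 member among them, and none was removed in the main results. Results for a few genes are not reported here. The calculation was tested on simulated data. Tools were Python 3.11.15, numpy 2.4.6, scipy 1.17.1, pandas 2.3.3, scanpy 1.11.5, matplotlib 3.10.9, and edgeR 4.0.16 on R 4.3.3 for TMM factors only.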

Additional observations from a re-analysis of the deposited data

How the results depend on the processing

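The values here are those of all 347 cells, and the cause of each change was not tested unless fewer cells, genes or UMIs entered by construction. A filter of at least 1000 UMIs and at most 10% mitochondrial UMIs gave a share of 1.53% in place of 1.20%. Leaving out the 24 barcodes rich in plasma cell genes, an alternative chosen after seeing the data, gave 481 genes higher than in non-T cells in place of 317. It gave 20 genes higher and 24 lower than in Cd8-positive cells in place of 12 and 44, and 298 apart between sets in place of 735. TMM scaling gave 20 higher and 27 lower than in Cd8-positive cells and 483 apart. The mean of per-cell CPM gave 32 higher than in Cd8-positive cells and 429 apart. The number of measured genes can differ between alternatives and is not given for each. These counts and those below are therefore not shares.

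At least 20 expected UMIs gave 160 higher and 248 lower than in non-T cells and 4 and 29 against Cd8-positive cells. At least 1 expected UMI gave 18 higher than in Cd8-positive cells. At least 20 UMIs between sets, a limit that lets in more genes, gave 1618 apart, with all 735 among them. Thinning to 1000 UMIs gave 195 and 209 against non-T cells, 4 and 13 against Cd8-positive cells, and 83 apart. It also gave Cd4 in 3.23%, Foxp3 in 0.293% and Nkg7 in 9.97% of cells in place of 15.3%, 2.88% and 15%.

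Requiring the call in the remaining sets, leaving out 1 set at a time gave 16 to 28 genes higher than in Cd8-positive cells (28 without set 2, 21 without set 4) and 49 to 75 lower (75 without set 2). Against non-T cells it gave 333 to 430 higher and 729 to 1064 lower. By construction these counts cannot fall below those with all 4 sets, since fewer sets had to pass. No named gene called with all 347 cells changed sign under an alternative that gave it a value, but genes not called did. Against non-T cells 9 of 109 changed sign under at least 1, among them Igh-6 (-5.69 without the 24, in place of 1.47), and against Cd8-positive cells 31 of 114. Of 77 named genes called against non-T cells, 36 had a value under all 15 alternatives and 33 of these kept their call, and of the other 41 it was 38 where run. Birc3, Ccl3, Ccl4, Icam1, Klf2 and Klf3 lost it under at least 1. Against Cd8-positive cells 10 of 25 had a value under all 14 and 8 kept it, and of the other 15 it was 13 where run, with Arf3, Lag3 and Themis among those losing it. No paired analysis was possible because the sets carry no replicate numbers and no groups. Depth limits Cd4 and Foxp3, which had few UMIs per cell.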
